A study of Mus musculus with 36 samples.

Results

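The subject here is the set of 10 chemokine genes Ccl2, Ccl5, Ccl7, Ccl9, Cxcl1, Cxcl5, Cxcl10, Cxcl12, Cxcl14 and Cxcl16 in mouse knee cartilage, 10 of the 23059 genes that could be named in the RNA tables. Each gene was followed through the RefSeq transcript with the highest mean count over the 12 RNA libraries, and all 10 passed the filter on low counts at both time points. The mice were male C57BL/6J that had surgical destabilization of the medial meniscus (DMM), a model of post-traumatic osteoarthritis, in the right knee at 12 weeks of age. The left knee of the mice was left without surgery and is called control, so no sham-operated or naive joint was compared. Cartilage of the tibial and femoral surfaces was microdissected at 4 and 12 weeks after surgery, tissue of 3 knees was pooled for each library, and 3 control and 3 DMM libraries were made at each time point for RNA sequencing and, from other mice, for reduced representation oxidative bisulfite sequencing (RRoxBS).

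Chemokines are small secreted proteins that steer the migration of leukocytes by binding receptors coupled to G proteins, and they are grouped by the spacing of their conserved cysteines into CC (Ccl) and CXC (Cxcl) families. Ccl2 and Ccl7 attract monocytes through Ccr2, Ccl5 and Ccl9 act on cells with Ccr1, Cxcl1 and Cxcl5 attract neutrophils through Cxcr2, and the interferon-induced Cxcl10 attracts T and NK cells through Cxcr3. Cxcl12 is made constitutively by marrow stroma and holds hematopoietic cells through Cxcr4, Cxcl16 is a membrane-anchored ligand of Cxcr6 that is released by the protease Adam10, and Cxcl14 is a homeostatic chemokine. In joints, inflammatory chemokines are made by synovial cells, macrophages and stimulated chondrocytes.

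The genes lie on 4 chromosomes of the mouse genome build GRCm38.p6. On chromosome 11, Ccl2 (chr11:82035577-82037452) and Ccl7 (chr11:82045712-82047525) lie on the plus strand with 8259 bp between them, Ccl5 (chr11:83525778-83530518) and Ccl9 (chr11:83572917-83578636) lie on the minus strand with 42398 bp between them, and Cxcl16 (chr11:70455189-70459984) lies apart from both pairs. On chromosome 5, Cxcl5 (chr5:90759298-90761625) and Cxcl1 (chr5:90891245-90893121) are 129619 bp apart on the plus strand, and Cxcl10 (chr5:92346638-92348889) is on the minus strand. Cxcl12 (chr6:117168535-117181368) and Cxcl14 (chr13:56288643-56296551) have no other member on their chromosomes. Cxcl12 was the only member with more than 1 counted transcript. Its 3 transcripts start at the same base, and the one with 3 exons ends earlier than the others. Their mean counts were 18960 to 19410. They overlap, so they are not fully separate measurements, but the reads that they share were not counted.

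The promoter sequences of 4 members are shown because they contrast the inducible ligands Cxcl1 and Cxcl10 with the abundant ligands Cxcl12 and Cxcl14. Of the 10 members, 5 had an entry in the RefSeq promoter table (Ccl9, Cxcl1, Cxcl10, Cxcl12 and Cxcl14; GRCm38.p6), and the stretch shown is the 250 bases before the transcript start, 5′ to 3′ on the gene's own strand. Capitals mark matches, on either strand, to 3 motifs: the NF-kB motif (GGGA and TTCC with any 2 bases between them) in Cxcl1 and Cxcl10, the interferon response motif (GAAA and GAAA with any 2 bases between them) in Cxcl10 and Cxcl14, and the GC box GGGCGG in Cxcl12, where adjacent matches run together.
Cxcl1 (chr5:90890995-90891244, plus strand): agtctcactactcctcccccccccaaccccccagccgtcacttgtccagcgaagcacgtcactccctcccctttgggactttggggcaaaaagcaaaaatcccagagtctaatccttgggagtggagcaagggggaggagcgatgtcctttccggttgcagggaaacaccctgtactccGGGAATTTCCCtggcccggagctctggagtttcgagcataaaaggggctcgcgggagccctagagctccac
Cxcl10 (chr5:92348890-92349139, minus strand): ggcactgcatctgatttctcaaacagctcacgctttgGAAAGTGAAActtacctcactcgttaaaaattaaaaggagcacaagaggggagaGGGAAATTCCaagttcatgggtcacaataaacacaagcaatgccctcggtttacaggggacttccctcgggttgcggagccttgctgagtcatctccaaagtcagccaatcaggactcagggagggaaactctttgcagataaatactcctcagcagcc
Cxcl12 (chr6:117168285-117168534, plus strand): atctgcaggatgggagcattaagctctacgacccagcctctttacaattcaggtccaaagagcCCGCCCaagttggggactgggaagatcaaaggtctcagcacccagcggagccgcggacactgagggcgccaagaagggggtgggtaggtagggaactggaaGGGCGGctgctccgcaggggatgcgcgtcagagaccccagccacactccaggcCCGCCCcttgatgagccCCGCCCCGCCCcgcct
Cxcl14 (chr13:56296552-56296801, minus strand): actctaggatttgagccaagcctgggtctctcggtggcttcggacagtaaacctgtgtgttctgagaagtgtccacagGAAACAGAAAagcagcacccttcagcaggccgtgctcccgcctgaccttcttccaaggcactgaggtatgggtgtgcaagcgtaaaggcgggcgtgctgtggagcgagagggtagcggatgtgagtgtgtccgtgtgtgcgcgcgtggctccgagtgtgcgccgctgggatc

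In Cxcl1 the NF-kB motif stood 71 bases before the start, where matches on the 2 strands overlap, and in Cxcl10 it stood 159 bases before it. Its letters occur in 1.47% of the 32851 promoter windows of 300 bases in the table, and were absent from the windows of Ccl9, Cxcl12 and Cxcl14. The interferon response motif stood 213 bases before the start of Cxcl10 and 172 bases before that of Cxcl14, and 3.44% of windows hold it. Cxcl12 had 5 GGGCGG matches before its start and Cxcl14 had 3 after its start, against 35.7% of windows with any. The TATA box letters TATAAA, searched as well and held by 13.6% of windows, occurred only in Ccl9, at 3 places. In the 300 bases, Cxcl14 held 22 CpGs and Cxcl12 20, Cxcl1 and Cxcl10 held 10 each and Ccl9 held 2, with a median of 7 over all windows. A match of letters is a description of the sequence and not a measured binding site. Only these exact patterns were searched, so sites of the same factors with other letters are not marked or counted.

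Levels of the 10 genes spanned more than 2 orders of magnitude. Counts were scaled to the library total (CPM) with TMM factors over the 12 libraries and, to compare genes, divided by the transcript length in kilobases. Cxcl12 (77.8 ± 26.1 CPM per kb, SD, n = 12 libraries) and Cxcl14 (58.2 ± 14.8) were the most abundant members, and Cxcl12 was above Cxcl14 in 8 of 12 libraries. That comparison depends on the transcript length used for Cxcl12, 5670 bases, the longest of its 3. The others have 3173 and 1878 bases and similar mean counts, so either length would place Cxcl12 further above Cxcl14. Cxcl14 was above Ccl9 in 12 of 12 libraries, and the fold between their means was 4.2. Ccl9 (13.9 ± 6.19 CPM per kb), Cxcl16 (10.7 ± 5.54) and Ccl5 (7.93 ± 1.93) followed, each above the next in 8 to 10 of 12 libraries. Ccl7 (4.63 ± 7.77) and Ccl2 (2.84 ± 3.18) varied by more than their means, and Ccl7 was above Ccl2 in 10 libraries but Ccl2 was above Cxcl10 in only 6. Cxcl10 (1.75 ± 0.951), Cxcl5 (0.948 ± 0.423) and Cxcl1 (0.608 ± 0.970) were the lowest, and Cxcl1 rested on only 4 to 112 counts per library. The places of Ccl7 and Ccl2 in this order came from the 4-week libraries. At 12 weeks the means of Ccl7 were 0.716 CPM per kb in control and 0.995 in DMM, below those of Cxcl10 (1.51 and 1.41) and Cxcl5 (1.18 and 1.12), and those of Ccl2 (1.20 and 1.01) were below Cxcl10.

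**Figure D1:**
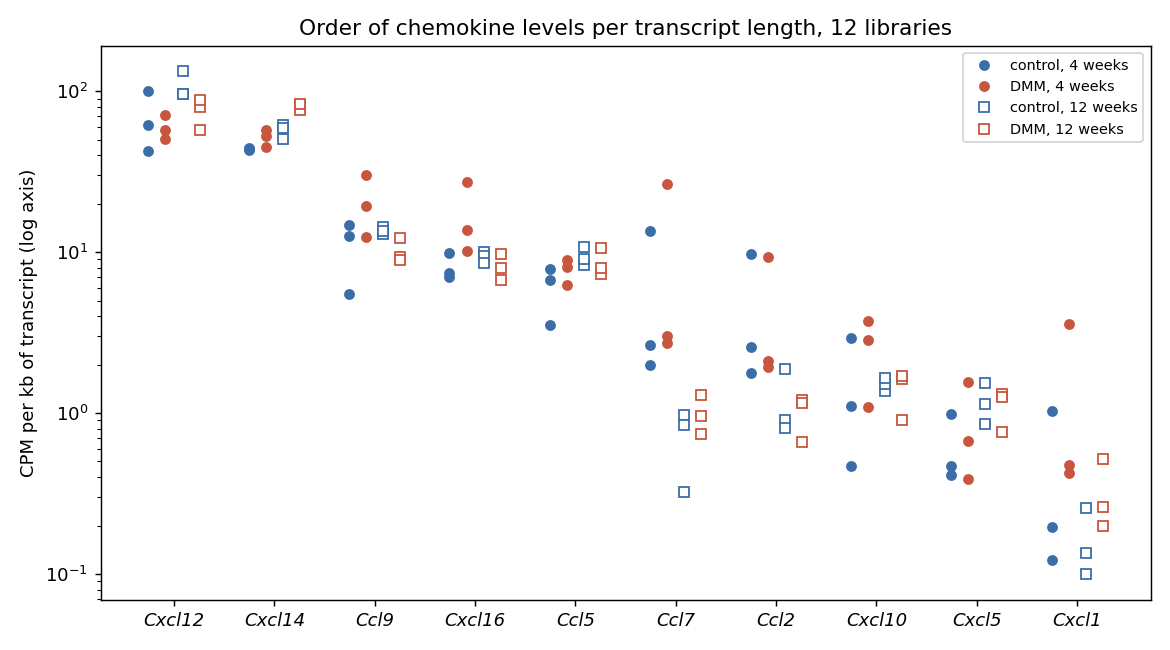
CPM per kilobase of transcript (log axis) of the 10 chemokines, ordered by their mean over 12 libraries, where each point is a library, color gives the limb and filled or open symbols give 4 or 12 weeks. Cxcl12 and Cxcl14 lie between 42.7 and 133 CPM per kb, and the points of Ccl7, Ccl2 and Cxcl1 spread over more than a factor of 10.

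The libraries held 27706547 to 62737656 counts. Chondrocyte markers were abundant in all of them, with summed levels of 11510 to 40880 CPM, and none of the marker lists had a member at 0 in every library, so the dissected tissue also held RNA of neutrophil markers (9441 to 44550 CPM), of monocyte and macrophage markers (2282 to 7014 CPM) and of skeletal muscle markers (80.9 to 18570 CPM). At 4 weeks, muscle markers were lower in DMM (514 to 2977 CPM) than in control libraries (5043 to 18570 CPM), and osteoblast and osteocyte markers were higher in DMM than in control libraries without overlap at both time points. Markers of fibroblasts and synovium stood at 9431 to 32230 CPM, with 10 of 12 genes above 0 in the log2 fold change between limbs at 4 weeks (median 1.35) and 11 of 12 at 12 weeks (median 0.69). In bulk tissue, fewer cells of a type and less RNA per cell cannot be told apart.

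At 4 weeks, none of the 10 chemokines passed the test between limbs (edgeR quasi-likelihood test, Benjamini-Hochberg adjusted p under 0.05), when 0.0757% of the 21140 transcripts tested passed, 0.0615% higher and 0.0142% lower in DMM. Without adjustment, Cxcl16 had p under 0.05, as did 13.7% of transcripts, and DESeq2 called none of the members and 3.44% of transcripts. Of the 10 genes, 8 had a log2 fold change above 0, as did 47.5% of all transcripts, and their median was 0.60 against -0.03 over all transcripts. The values in DMM did not overlap those in control libraries for Cxcl14 and Cxcl16, both higher, when 21.2% of transcripts did not overlap, 10.8% higher and 10.4% lower. The smallest p that an exact permutation of 3 against 3 libraries can give is 0.1.

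Cxcl16 had the clearest difference at 4 weeks. Its levels were 10.5, 14.8 and 11.1 CPM in control and 15.1, 20.5 and 40.6 CPM in DMM replicates 1 to 3. The DMM libraries were all above the control libraries, and DMM replicate 3 was apart from the others. Summed monocyte and macrophage markers were 2282, 3659 and 5154 CPM in control and 3378, 5255 and 7014 CPM in DMM. They had the order of Cxcl16 in DMM but not in control libraries, and their part was not tested. The log2 fold change of Cxcl16 was 1.06 (SE 0.36, 95% confidence interval 0.23 to 1.88, edgeR adjusted p = 0.31). Without DMM replicate 3 it was 0.56 (adjusted p = 0.906). Of its partners, named after their values were seen, the receptor Cxcr6 had a log2 fold change of 0.81 (SE 0.45, adjusted p = 0.419) and Adam10 one of 0.26 (SE 0.26, adjusted p = 0.631).

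Ccl9, a Ccr1 ligand that macrophages and osteoclasts make in quantity, measured 16.6, 38.1 and 44.1 CPM in control and 37.1, 58.2 and 91.1 CPM in DMM libraries at 4 weeks. The ranges overlapped, since the lowest DMM library lay below control replicates 2 and 3. The log2 fold change was 0.90 (SE 0.42, 95% confidence interval -0.07 to 1.87, edgeR adjusted p = 0.379). Over the same libraries the summed monocyte and macrophage markers, 13 genes with values, were 2282, 3659 and 5154 CPM in control and 3378, 5255 and 7014 CPM in DMM. Within each limb at 4 weeks, Ccl9 and these markers had the same order of libraries. Summed osteoclast markers were 893, 1433 and 3170 CPM in control and 1719, 2185 and 1818 CPM in DMM. They had the order of Ccl9 in control but not in DMM libraries. The part of these marker lists in the limb difference of Ccl9 was not tested.

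**Figure D2:**
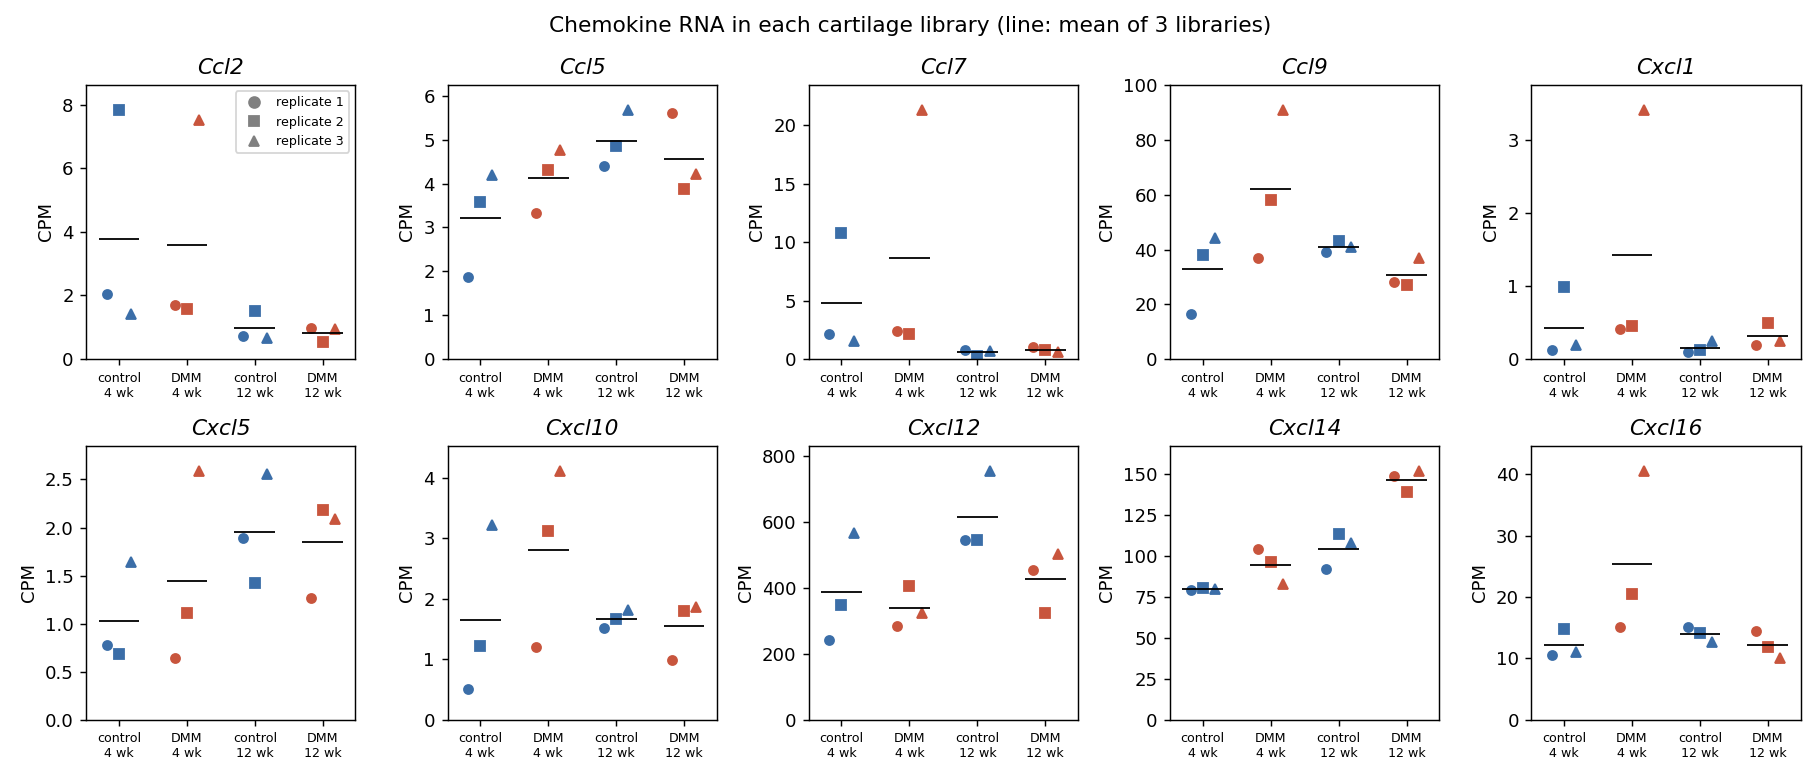
CPM of each chemokine (linear axes from 0) in the 12 RNA libraries by limb and week, with symbols for replicate numbers and a line at the mean of 3 libraries. Cxcl14 steps from 79.2 to 80.6 CPM in 4-week control to 139 to 152 CPM in 12-week DMM libraries, and Ccl2, Ccl7 and Cxcl1 are high in control replicate 2 and DMM replicate 3 of 4 weeks.

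The monocyte attractants Ccl2 and Ccl7 and the neutrophil attractant Cxcl1 varied more between libraries of a limb at 4 weeks than between the limbs. Ccl2 was at 2.06, 7.84 and 1.43 CPM in control and at 1.69, 1.56 and 7.53 CPM in DMM libraries. Ccl7 was at 2.11, 10.8 and 1.58 CPM in control and at 2.42, 2.17 and 21.3 CPM in DMM. Cxcl1 was at 0.117, 0.983 and 0.186 CPM in control and at 0.408, 0.453 and 3.42 CPM in DMM. In all 3 genes, control replicate 2 was the highest control library and DMM replicate 3 the highest DMM library, and these were the highest 2 of all 12 libraries.

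The coefficients of variation within a limb were 93.5% and 94.9% for Ccl2, 107% and 127% for Ccl7 and 112% and 121% for Cxcl1. The log2 fold changes were -0.08 (SE 0.78) for Ccl2, 0.83 (SE 1.01) for Ccl7 and 1.70 (SE 1.02) for Cxcl1, with edgeR adjusted p of 0.967, 0.695 and 0.438. With control replicate 2 and DMM replicate 3 both left out, an alternative chosen after seeing these values, they were -0.10, 0.31 and 1.47, and none of the 10 members passed. For Cxcl1 the value was 0.01 without DMM replicate 3 alone and 3.17 without control replicate 2 alone, so single libraries set it. Monocyte and macrophage markers were not at their highest in control replicate 2 (3659 CPM), but DMM replicate 3 had the highest value of all libraries (7014 CPM). Fibroblast and synovium markers were at 24910, 24070 and 10740 CPM in control and at 24470, 22890 and 32230 CPM in DMM libraries. Control replicate 2 did not stand out in these sums. Prg4 is on this list and also on that of chondrocytes. Chondrocyte sums had the same order in control (40880, 30890 and 17300 CPM) but not in DMM libraries (21870, 14530 and 14980 CPM). The part of these marker lists was not tested.

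Of the other members, 4 overlapped between the limbs at 4 weeks and Cxcl14 did not. Ccl5 had 1.87 to 4.19 CPM in control and 3.32 to 4.76 CPM in DMM (log2 fold change 0.35, SE 0.35), Cxcl10 had 0.515 to 3.22 and 1.19 to 4.12 CPM (0.74, SE 0.67), and Cxcl5 had 0.682 to 1.64 and 0.641 to 2.59 CPM (0.46, SE 0.57). Cxcl12 had 242 to 567 CPM in control and 284 to 405 CPM in DMM (-0.20, SE 0.34). Its transcript with 3 exons gave 0.06 (SE 0.30). The edgeR adjusted p of these 4 genes was 0.594 to 0.78. Cxcl14 had 79.2, 80.6 and 79.7 CPM in control, a coefficient of variation of 0.852%, and 104, 96.0 and 82.7 CPM in DMM, so that all DMM libraries were higher with a log2 fold change of 0.24 (SE 0.18, adjusted p = 0.51).

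At 12 weeks again none of the 10 members passed between limbs, when 0.00476% of 21010 transcripts did. In edgeR without adjustment, Ccl9 and Cxcl14 had p under 0.05, as did 16.3% of transcripts. Only 3 of the 10 had a log2 fold change above 0, against 51.5% of all transcripts, and the median was -0.11 against 0.01 over all. Of all transcripts 18.8% did not overlap between limbs. Cxcl14 was higher without overlap, when 10% of transcripts were, and Ccl9 and Cxcl12 were lower without overlap, when 8.85% were.

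Cxcl14 measured 92.0, 113 and 108 CPM in control and 149, 139 and 152 CPM in DMM libraries at 12 weeks. The lowest DMM library was well above the highest control library. The log2 fold change was 0.50 (SE 0.13, 95% confidence interval 0.19 to 0.80), a 1.41-fold difference, with an edgeR adjusted p of 0.215. DESeq2, the tool of the study, called it (0.49, adjusted p = 0.0253, when 4.24% of transcripts passed). Chondrocyte markers stood at 11510 to 33470 CPM in control and at 23290 to 37670 CPM in DMM libraries, with 15 of 15 genes above 0 in the log2 fold change, and their part in the Cxcl14 difference was not tested. At 4 weeks, 12 of 15 of these genes were below 0.

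Cxcl12 was at 546, 544 and 755 CPM in control and at 453, 324 and 502 CPM in DMM libraries at 12 weeks. All DMM libraries were below all control libraries, with a log2 fold change of -0.52 (SE 0.23, 95% confidence interval -1.04 to 0.00, edgeR adjusted p = 0.306). Its other transcripts gave -0.52 and -0.35. Marrow stroma markers other than Cxcl12 (6 genes) were lower in sum as well, from 348 to 498 CPM in control to 232 to 292 CPM in DMM, also without overlap. Of the 6 genes, 4 were below 0 in the log2 fold change and 2 above, Foxc1 at 0.77 and Ebf3 at 0.11, named after their values were seen. Other lists were mostly below 0 as well, in 9 of 9 erythroid, 11 of 11 neutrophil, 10 of 11 T and NK cell and 12 of 13 monocyte and macrophage genes. Chondrocyte genes were above 0 in 15 of 15, and fibroblast and synovium genes in 11 of 12. Erythroid sums overlapped between the limbs, at 11370 to 15930 CPM in control and 8341 to 14120 CPM in DMM. The part of these lists in the Cxcl12 difference was not tested. Its receptors, of which Cxcr4 was named after its values were seen, were Cxcr4 (log2 fold change -0.32, SE 0.23, edgeR adjusted p = 0.491) and Ackr3, which scavenges Cxcl12 (0.85, SE 0.29, adjusted p = 0.261).

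Ccl9 was at 39.2, 43.1 and 40.8 CPM in control and at 28.2, 26.9 and 37.0 CPM in DMM libraries at 12 weeks. The DMM libraries lay below the control libraries, the opposite order of the means at 4 weeks, with a log2 fold change of -0.41 (SE 0.15, edgeR adjusted p = 0.27). The summed monocyte and macrophage markers were also lower in DMM without overlap, at 3890 to 4731 CPM against 4810 to 6602 CPM. Of these genes, 12 of 13 were below 0 in the log2 fold change. In control replicates 1 to 3 the sums were 6602, 4810 and 5857 CPM, the reverse of the order of Ccl9. In DMM libraries they were 4109, 3890 and 4731 CPM, in the same order as Ccl9. Osteoclast sums overlapped between the limbs, at 1723 to 2356 CPM in control and 1549 to 2370 CPM in DMM. The part of these marker lists in the Ccl9 difference was not tested.

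**Figure D3:**
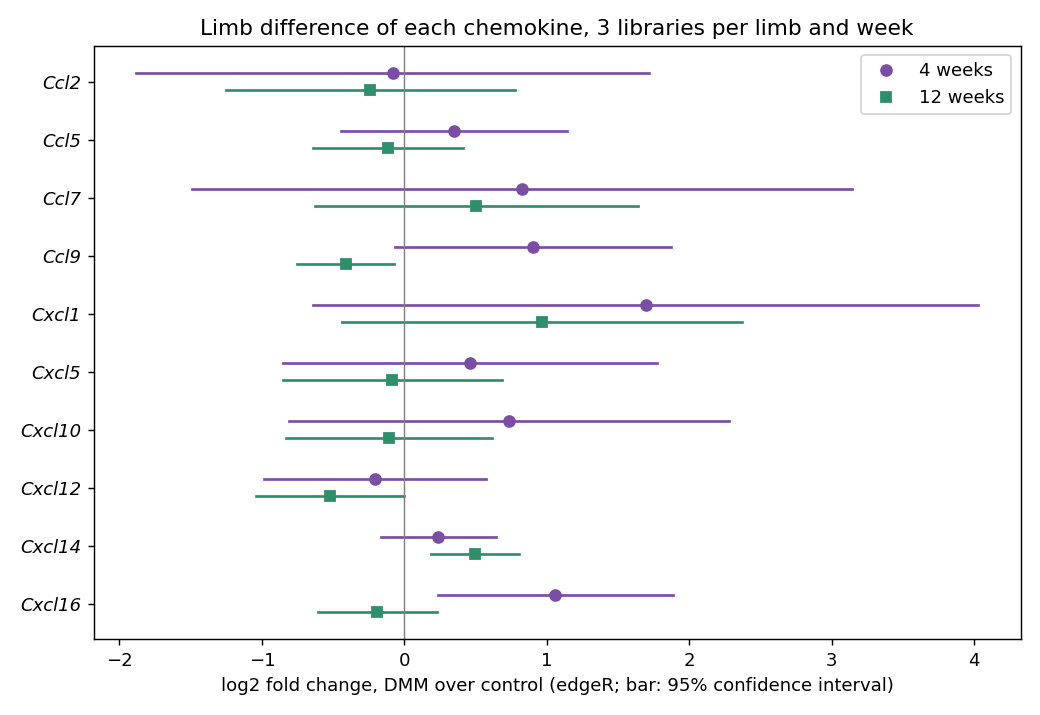
Log2 fold change of each chemokine in DMM over control cartilage at 4 and 12 weeks, with bars for the 95% confidence interval from edgeR, 3 libraries per limb and week. The interval excludes 0 for Cxcl16 at 4 weeks and for Cxcl14 and Ccl9 at 12 weeks, before adjustment for the number of transcripts tested.

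The remaining 7 members overlapped between the limbs at 12 weeks. Cxcl16 had 15.1, 14.1 and 12.7 CPM in control and 14.5, 11.9 and 9.98 CPM in DMM (log2 fold change -0.19, SE 0.18). Ccl2 was at 0.652 to 1.52 CPM in control and 0.536 to 0.970 CPM in DMM, and Ccl7 at 0.259 to 0.782 and 0.591 to 1.03 CPM. Cxcl1 had the widest interval, with a log2 fold change of 0.97 (95% confidence interval -0.44 to 2.37). The edgeR adjusted p of these 7 genes was 0.438 to 0.918.

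Whether the limb difference changed between 4 and 12 weeks was tested as the interaction of limb and week, in which none of the 10 members passed and 0% of 21618 transcripts did. In the same test, edgeR gave an unadjusted p under 0.05 to 2656 transcripts (12.3%), Cxcl16 and Ccl9 among them, and DESeq2 called 16 transcripts (0.0613%), none of them a member. This test uses the same libraries as the limb comparisons above. The interaction was negative for 9 of 10 members, meaning a DMM difference lower at 12 than at 4 weeks. The median was -0.52 against 0.03 over all transcripts, whose share below 0 was not counted. Leukocyte markers were mostly negative as well, in 12 of 13 monocyte and macrophage, 10 of 11 neutrophil and 10 of 11 T and NK cell genes. Chondrocyte markers were positive in 15 of 15 genes. The part of these lists was not tested. Among members, the interaction was largest for Ccl9 (-1.33, SE 0.49, adjusted p = 0.405) and Cxcl16 (-1.27, SE 0.43, adjusted p = 0.405). It was positive only for Cxcl14 (0.25, SE 0.20, adjusted p = 0.553).

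Between the time points, weeks after surgery are also the age of the mice and may be a sequencing batch, which cannot be told apart. In control cartilage none of the 10 members passed at 12 against 4 weeks, when 5.69% of transcripts did, 2.45% higher and 3.24% lower. Without adjustment 4 members had p under 0.05, as did 25.4% of transcripts. Of the 10, 7 had a log2 fold change above 0, against 49.8% of transcripts. Ccl5 and Cxcl14 were higher and Ccl7 lower without overlap, when 27.2% of transcripts did not overlap, 16.3% higher and 10.9% lower. T and NK cell markers were also higher without overlap, at 57.9 to 127 CPM at 4 weeks and 137 to 174 CPM at 12 weeks, with 1 of 11 genes higher and 0 lower in the edgeR test. Of 12 fibroblast and synovium markers 11 were below 0, 2 of them lower in the test and 1 gene higher, and of 11 neutrophil markers 11 were above 0 and 1 was higher. The part of these lists in the members' values was not tested. The log2 fold changes of the largest were -3.09 for Ccl7 (SE 1.02, adjusted p = 0.0902) and -1.95 for Ccl2 (SE 0.73, adjusted p = 0.124). DESeq2 called Ccl2 (-1.98, adjusted p = 0.0346, when 13.9% passed). Both rested on control replicate 2 of 4 weeks, without which they were -1.71 for Ccl7 (adjusted p = 0.345) and -0.83 for Ccl2 (adjusted p = 0.539). Without control replicate 3 of 4 weeks, edgeR called Ccl2 (-2.36) and Cxcl12 (1.04), and with only the 6 control libraries in the fit no transcript passed.

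In DMM cartilage, 3 of the 10 members passed at 12 against 4 weeks, when 23.6% of transcripts did, 13.6% higher and 10.1% lower, so the share among the members was near that of all transcripts. Without adjustment 6 members had p under 0.05, as did 37.4% of transcripts. Of the 10, 4 had a log2 fold change above 0, against 51.1% of transcripts. Cxcl12 was among them (0.34, SE 0.30), but its transcript with 3 exons gave -0.09 (SE 0.24). Cxcl14 was higher and Ccl2, Ccl7, Ccl9 and Cxcl16 were lower without overlap, when 42.3% of transcripts did not overlap, 23.3% higher and 19% lower. Cxcl14 was higher at 12 weeks by 0.64 on the log2 scale (SE 0.14, edgeR adjusted p = 0.00999), from 82.7 to 104 CPM at 4 weeks to 139 to 152 CPM at 12 weeks. Chondrocyte markers were also higher without overlap, at 14530 to 21870 CPM at 4 weeks and 23290 to 37670 CPM at 12 weeks, with 4 of 15 genes higher and 0 lower in the same test, and their part in the Cxcl14 difference was not tested. Cxcl16 was lower by a log2 fold change of -1.06 (SE 0.31, adjusted p = 0.0285) and Ccl7 by -3.43 (SE 1.02, adjusted p = 0.0326). The Ccl7 level was 2.17 to 21.3 CPM at 4 weeks and 0.591 to 1.03 CPM at 12 weeks. Of the 13 monocyte and macrophage markers, 6 were lower and 0 higher in the same test, though their sums overlapped between the weeks, at 3378 to 7014 CPM and 3890 to 4731 CPM. Of the 12 fibroblast and synovium markers, 7 were lower and 1 higher, with sums of 22890 to 32230 CPM and 20030 to 31300 CPM that also overlapped. Of 10 endothelium markers 3 and of 6 marrow stroma markers 2 were lower, with 0 higher, and both sums were lower without overlap. The part of these 4 lists in the differences of Cxcl16 and Ccl7 was not tested.

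In DMM cartilage, the calls of Ccl7 and Cxcl16 depended on several single libraries and that of Cxcl14 on DMM replicate 3 of 4 weeks. Leaving out that replicate cut the calls over all transcripts from 5109 to 1682. Without DMM replicate 3 of 4 weeks none of the 3 passed (Ccl7 -1.56 with adjusted p = 0.218, Cxcl16 -0.59 with 0.119, Cxcl14 0.51 with 0.055), and without 12-week DMM replicate 1, 2 or 3 Ccl7 did not pass, nor Cxcl16 without replicate 2 or 3. Cxcl14 passed in each of the 5 other fits without 1 DMM library. Ccl2 (-2.12, SE 0.75, adjusted p = 0.0581) and Ccl9 (-1.02, SE 0.35, adjusted p = 0.0538) did not pass, though DESeq2 called both, with Cxcl14 and Cxcl16 but not Ccl7, when 29.1% of transcripts passed. The control-limb difference over the same weeks was 0.39 for Cxcl14 (SE 0.14), 0.20 for Cxcl16 and 0.32 for Ccl9. The control and DMM changes with time share no library.

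Across the 12 libraries, some members varied together. These correlations of log2 CPM are descriptions, since the points share dissections, pools and sequencing depth. The neighbors Ccl2 and Ccl7 had r = 0.871, and Ccl7 and Cxcl1, on other chromosomes, had r = 0.821. Ccl9 and Cxcl10 had r = 0.877 and 0.884 after removing the group means. Ccl9 and Cxcl16 had r = 0.783, and Ccl5 and Cxcl12 had r = 0.745. Cxcl14 had its lowest correlations with Ccl2 (r = -0.628, and -0.205 after removing the group means) and Ccl7 (-0.611 and -0.608). Its positive values with Ccl5 (0.417) and Cxcl5 (0.305) were -0.0471 and -0.604 after removing the group means, and its lowest value then was with Cxcl16 (-0.68).

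Of 15567 other genes, those with the level pattern most like each member over the 12 libraries were as follows. Ccl2 was nearest to Ccl17, a chemokine, and to Arg1 and Retnla, which macrophages express on alternative activation (r = 0.938, 0.898 and 0.879), and Ccl7 was nearest to Retnla, Gm16897 and Macc1 (0.961, 0.931 and 0.929). Ccl9 was nearest to Ly86, a partner of a Toll-like receptor relative, Lipa, the lysosomal lipase, and Epsti1 (0.981, 0.975 and 0.962). Cxcl16 was nearest to Ms4a6d, Smpdl3a and the endotoxin receptor Tlr4 (0.959, 0.929 and 0.927). Cxcl12 was nearest to Cyp4f18, the iron exporter Slc40a1 and the mitochondrial iron carrier Slc25a37 (0.971, 0.97 and 0.966). Cxcl14 was nearest to Prss50, Cdc42bpg and the cartilage matrix gene Crtac1 (0.932, 0.928 and 0.915). Genes near Cxcl10 were Picalm and H3f3a (0.968 and 0.954), Ccl5 was nearest to Glrp1, Zkscan6 and Kdm7a (0.952, 0.898 and 0.893), Cxcl1 to Trdmt1, Qpct and Mt2 (0.907, 0.9 and 0.898), and Cxcl5 to Nucks1, F2rl2 and Hccs (0.912, 0.904 and 0.896).

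**Figure D4:**
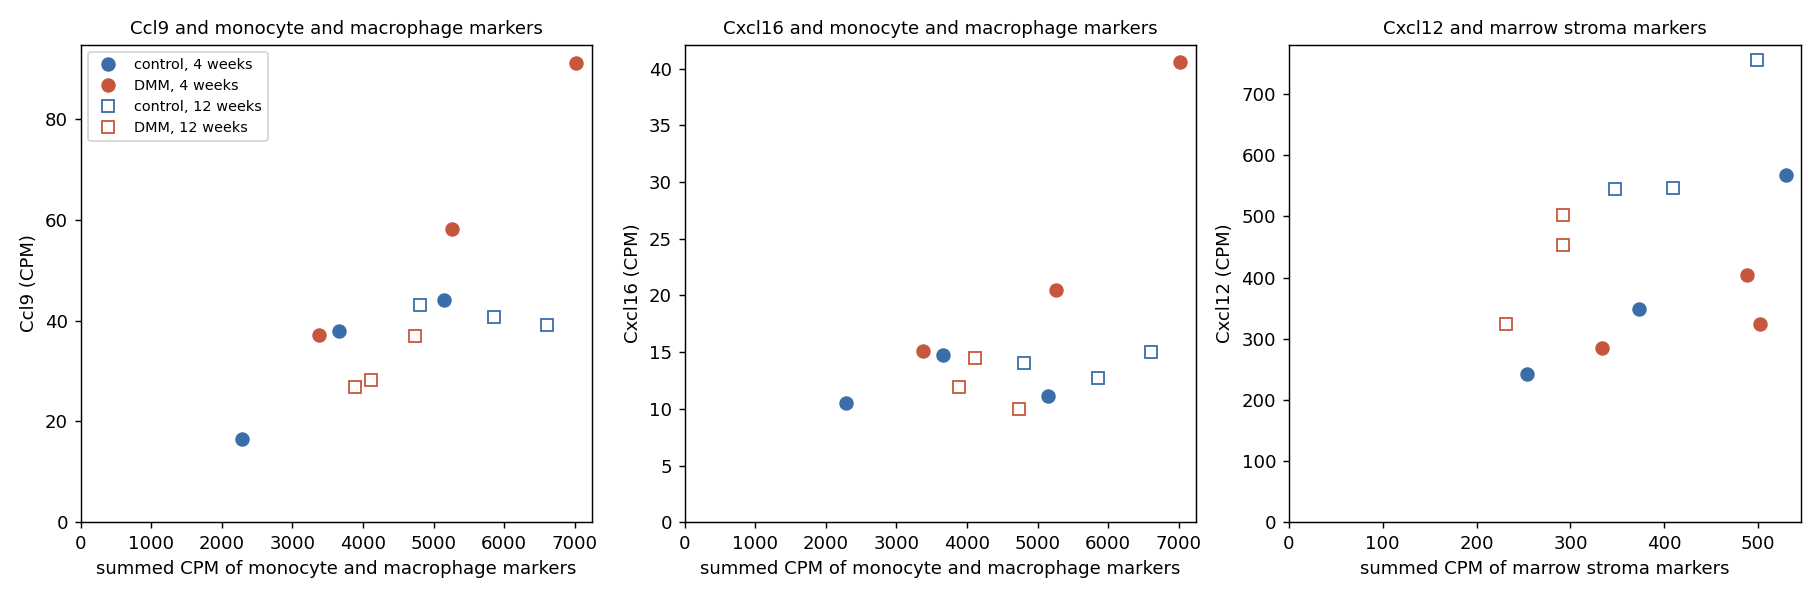
CPM of Ccl9, Cxcl16 and Cxcl12 (vertical axes from 0) against the summed CPM of marker genes of monocytes and macrophages or of marrow stroma (horizontal axes from 0), 1 point per library, with color for the limb and filled or open symbols for 4 or 12 weeks. DMM replicate 3 of 4 weeks has the highest marker sum (7014 CPM) and the highest Ccl9 (91.1 CPM) and Cxcl16 (40.6 CPM).

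No gene of the rest of the chemokine system passed the edgeR test between limbs. Of 25 other chemokine ligands, 19 could be tested at 4 weeks and 16 at 12 weeks, and 0 passed, with 1 at an unadjusted p under 0.05 at each week. Of 22 receptors, 23 genes of chemokine induction and 7 of chemokine processing, 0 passed at either week, and 3, 0 and 1 of them at 4 weeks and 6, 1 and 4 at 12 weeks had an unadjusted p under 0.05, when 13.7% and 16.3% of all transcripts did. DESeq2 called 1 ligand (Ccl8, 2.12), 1 receptor and 1 processing gene (Mmp2, 1.41) at 4 weeks, and 1 receptor (Ackr2, 0.92) and 1 processing gene (Mmp2, 1.14) at 12 weeks, when 3.44% and 4.24% of transcripts passed. The 3 ligands with the highest levels per kilobase were the platelet chemokines Ppbp (294 CPM per kb) and Pf4 (264 CPM per kb), and Ccl6 (113 CPM per kb), with log2 fold changes between limbs of -0.42 to 0.46 over both weeks. At 4 weeks, 17 of 19 tested ligands had a log2 fold change above 0 (median 0.46), against 47.5% of transcripts. At 12 weeks 7 of 16 did (median -0.15), against 51.5% of transcripts. Of leukocyte markers at 4 weeks, 10 of 13 monocyte and macrophage, 5 of 11 neutrophil and 6 of 11 T and NK cell genes were above 0. Their part in the ligand values was not tested.

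Among receptors, Ackr3 (79.4 CPM per kb), Ccr1 (23.1 CPM per kb), which binds Ccl5, Ccl7 and Ccl9, and Cxcr2 (22.9 CPM per kb), which binds Cxcl1 and Cxcl5, were the most abundant. At 4 weeks 14 of 19 tested receptors had a log2 fold change above 0 (median 0.15), against 47.5% of transcripts, and at 12 weeks 4 of 20 did (median -0.37), against 51.5% of transcripts, with Cxcr2 at -0.57 (SE 0.25, edgeR adjusted p = 0.306) and Ccr1 at -0.34 (SE 0.21, adjusted p = 0.419). Leukocyte markers were below 0 at 12 weeks as well, in 11 of 11 neutrophil genes, 10 of 11 T and NK cell genes and 12 of 13 monocyte and macrophage genes, and their part in the receptor values was not tested. Ifngr1 and Tnfrsf1a carry interferon gamma and TNF signals, and Nfkbia is a feedback inhibitor of NF-kB. These genes of the induction list had log2 fold changes from -0.24 to 0.27. Of the enzymes that trim or shed chemokines, the gelatinase Mmp2, which cuts Cxcl12, had log2 fold changes of 1.41 (SE 0.31, adjusted p = 0.227) at 4 weeks and 1.15 (SE 0.26, adjusted p = 0.211) at 12 weeks, while Mmp9 had -0.82 (SE 0.59) and -0.37 (SE 0.25) and Mmp14 had 0.39 and 0.41.

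Over time in DMM cartilage, 2 of 18 tested ligands passed, when 23.6% of transcripts did, both lower at 12 weeks, when 10.1% were: Ccl24, an eosinophil attractant, by -3.35 (SE 0.56, edgeR adjusted p = 0.00388) and Ccl8 by -2.29 (SE 0.68, adjusted p = 0.031). Ccl24 was also lower in control cartilage (-4.16, SE 0.59, adjusted p = 0.00706). Ccl8 had a mean of 19.5 CPM and an SD of 19.5 CPM in the 3 DMM libraries of 4 weeks, so these libraries differed widely. Its DESeq2 call between limbs at 4 weeks used the same libraries. Of 22 tested induction genes, 4 were higher, when 13.6% of transcripts were, and 0 lower: Nfkb2 (0.74, SE 0.18, adjusted p = 0.0146) and Relb (0.52, SE 0.15, adjusted p = 0.0304), subunits of noncanonical NF-kB, Nfkbiz (0.62, SE 0.19, adjusted p = 0.0367), and the IL-17 receptor chain Il17ra (1.09, SE 0.31, adjusted p = 0.0268). Neutrophil markers were also higher without overlap, at 13860 to 20730 CPM at 4 weeks and 21590 to 34680 CPM at 12 weeks, with 2 of 11 genes higher and 0 lower in the same test, and their part in the induction genes was not tested. Of 20 tested receptors 1 was higher, Ccr10 (1.48), and 2 were lower, Xcr1 (-1.75) among them, and of 7 processing genes 2 were lower, Adam17 (-0.88) and Dpp4 (-0.93), which trims chemokines. Ccr10 (SE 0.44, edgeR adjusted p = 0.0319) and Xcr1 (SE 0.45, adjusted p = 0.0181) had low counts. Their DMM means were 0.194 and 0.724 CPM at 4 weeks and 0.549 and 0.220 CPM at 12 weeks. In control cartilage 1 of 20 receptors was higher (Cx3cr1, 1.05, adjusted p = 0.049), when 5.69% of transcripts passed and 2.45% were higher. There 0 induction or processing genes passed the edgeR test, with 5 and 0 at an unadjusted p under 0.05, as had 25.4% of transcripts, and 0 by DESeq2. The genes named in this paragraph, and Ackr2, were chosen after their values were seen.

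The promoters of 5 members could be measured for 5-methylcytosine (5mC) by oxBS, in which only 5mC resists conversion: Cxcl5, Cxcl10, Cxcl12, Cxcl14 and Cxcl16. A promoter was taken as 1000 bases before to 500 after the transcript start, with at least 3 cytosines read at least 10 times in all 6 oxBS libraries of a week. In the windows of 300 bases whose sequence was tabulated, 5 of 10 CpGs of Cxcl10 were measured at both weeks, the farthest upstream 1 base before the start, but 0 of 20 CpGs of Cxcl12 and 0 of 22 of Cxcl14, so the values of these promoters come from other cytosines than those of the printed sequences. In the edgeR test of methylated against unmethylated reads 0 of 5 passed at each week, when 0% of 14265 promoters passed at 4 weeks and 0.568% of 14096 at 12 weeks. Without adjustment, 3.6% of promoters at 4 weeks and 10.3% at 12 weeks had p under 0.05, and among members only Cxcl16 at 12 weeks did. Limma on log2 ratios called 0 promoters at each week.

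All of these promoters were little methylated. The means over 3 libraries were 0.154% to 4.22%, and the median over all promoters of 6 libraries was 0.775% at 4 weeks and 0.436% at 12 weeks. Cytosine left unconverted on the mitochondrial genome was 0.53% to 0.742% at 4 weeks and 0.284% to 0.351% at 12 weeks, close to the values of Cxcl12 (0.457% to 0.848% as group means). At Cxcl16 at 12 weeks, 13 cytosines read 452 to 1257 times gave 0.618%, 0.442% and 1.3% in control and 0.318%, 0% and 0.143% in DMM libraries. All DMM values were lower, by -0.634 percentage points in the means (edgeR adjusted p = 0.317), when 15.3% of promoters did not overlap between limbs and 10.8% were lower. The 0% rests on 473 reads, which allows up to 0.634%, a limit that covers counting error only. The DMM values were within or below the range of the unconverted share.

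Gene bodies, from the end of the promoter window to the transcript end, were added after seeing the data and could be measured in 4 of the 10 members. Cxcl10 was at 83.1% to 87.2% and Cxcl12 at 32.0% to 37.6% as group means, against 3.12% to 3.67% for Cxcl14, and a median over all gene bodies of 55.5% at 4 weeks and 58% at 12 weeks. Cxcl16 had 32.7%, 27.3% and 32.3% in control and 21.8%, 21.6% and 25.2% in DMM at 12 weeks, on 4 cytosines read 55 to 188 times in all. The DMM values were lower without overlap, by -7.88 points (edgeR adjusted p = 0.264), when 21.4% of gene bodies did not overlap and 18% were lower. In that test 0.701% of 14270 gene bodies passed and 15.7% had an unadjusted p under 0.05. At 4 weeks the Cxcl16 gene body was at 23.9% ± 6.03 in control and 26.1% ± 5.13 in DMM (SD, n = 3), and 0% of 14465 gene bodies passed, 2.99% having an unadjusted p under 0.05.

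**Figure D5:**
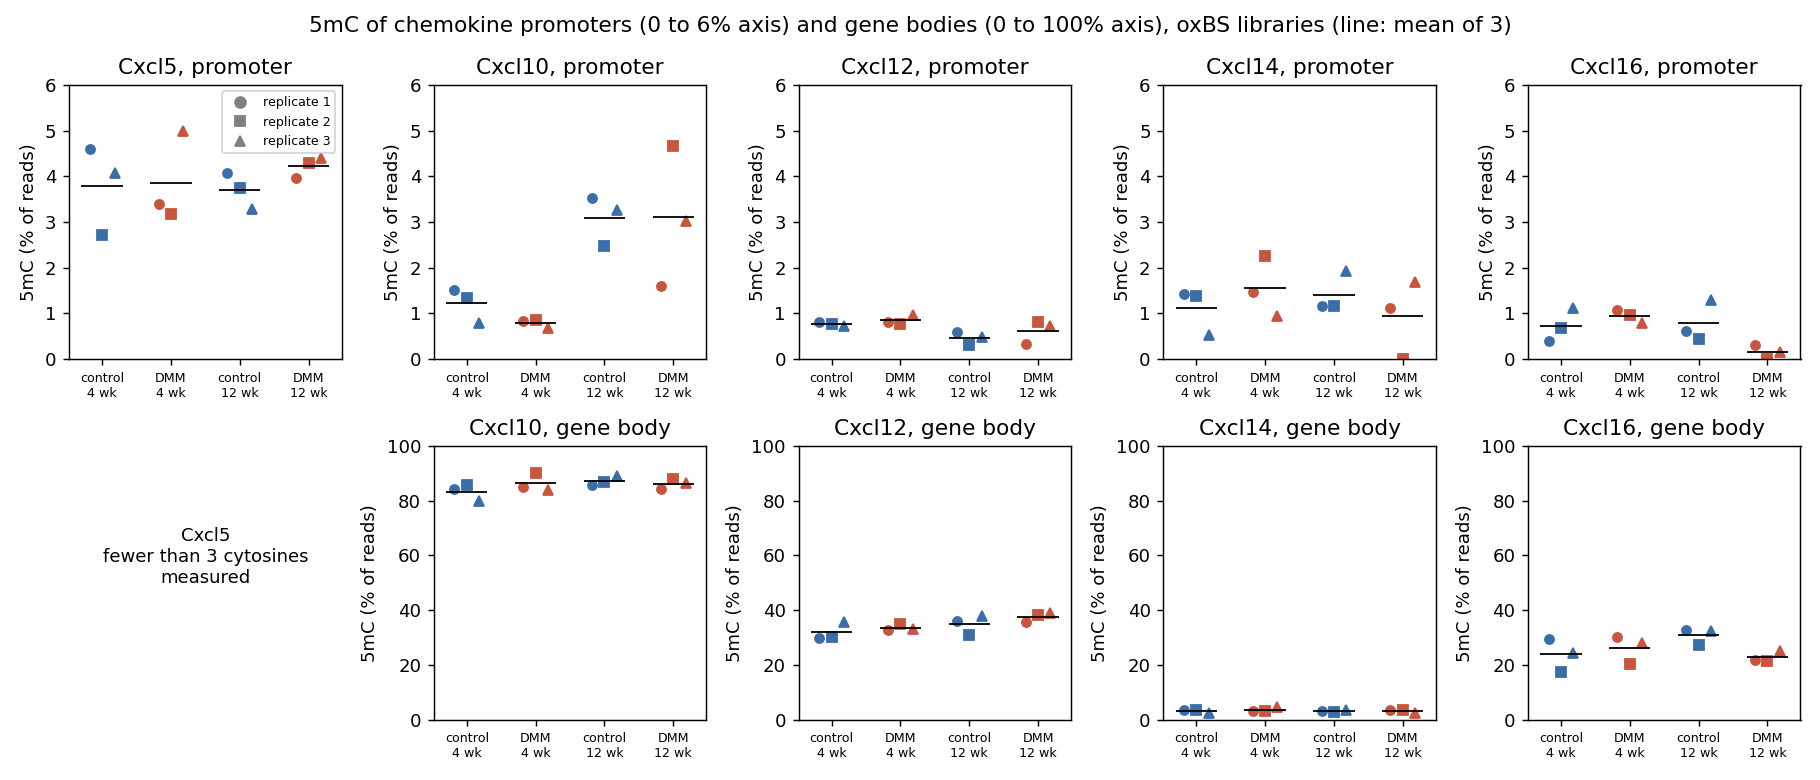
Percent of reads with 5mC at the promoters (top row, axis 0 to 6%) of 5 chemokines and the gene bodies (bottom row, axis 0 to 100%) of 4 of them in the oxBS libraries by limb and week, with symbols for replicate numbers and a line at the mean of 3. All promoter values are at or below 5%, and the Cxcl10 gene body lies above 79%.

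The share of 5-hydroxymethylcytosine (5hmC) was taken as the percent methylated in the mock-oxidized (BS) minus that in the oxidized (oxBS) library with the same label. At all 5 promoters and both weeks, except Cxcl10 at 12 weeks, the differences lay on both sides of 0, from -1.92 to 2.29 points in single libraries, with medians of -0.244 to 0.836. At Cxcl10 at 12 weeks the difference was above 0 in 6 of 6 libraries, as at 9.45% of promoters, from 0.652 to 4.85 points with a median of 3.04, on 160 to 437 BS reads per library. At 4 weeks its median was -0.122 with 4 of 6 libraries below 0. The value rested on 10 cytosines at 4 weeks and on 11 at 12 weeks, so the weeks do not compare the same set of sites. Its limbs overlapped at 12 weeks, with 3.12, 0.652 and 2.26 points in control and 4.85, 2.95 and 3.15 points in DMM. The table of the BS library labelled DMM replicate 1 at 12 weeks carries a name that points to replicate 2 and was used as labelled, so the 4.85 and the other values of DMM replicate 1 at 12 weeks may not compare the same DNA. The limbs did not overlap at Cxcl12 at 4 weeks, with 0.0401, 0.0837 and 0.2 points in control and -0.0993, -0.464 and -0.314 points in DMM, when 9.82% of promoters did not overlap. At 12 weeks, when 9.98% did not, they did not overlap at Cxcl5, with -0.0483, 0.731 and 1.14 points in control and -0.237, -1.92 and -1.37 points in DMM, and at Cxcl16, with -0.0383, -0.107 and -0.886 points in control and 0.176, 0.775 and 0.181 points in DMM. The oxBS values subtracted at Cxcl16 at 12 weeks are those of its lower 5mC in DMM, so its 5mC and 5hmC differences are not separate results. The 5hmC differences were not tested, and time after surgery, age and any batch of library preparation cannot be told apart.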

How the data were processed

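RNA libraries (12) and oxBS and BS libraries (24) were assigned by their labels to limb, week and replicate. The members and gene lists were chosen with earlier results of these data known. The authors deposited raw counts per RefSeq transcript (STAR and featureCounts on mm10, after base calling with CASAVA 2.17 per the submitters' processing notes; the strand setting is not given in the sources used here) for RNA, and for DNA the coverage and the percent of C per CpG cytosine after Bismark calling. The labels describe poly(A) libraries and the paper's methods a full-length SMART-Seq and Nextera protocol. Symbols matched 29476 of 30048 transcripts. Counts were tested with edgeR 4.0.16 in R 4.3.3 (robust quasi-likelihood, TMM, filterByExpr), and for comparison with DESeq2 1.42.0, at a Benjamini-Hochberg adjusted p under 0.05 over all transcripts. Limb differences were fitted within a week, and time and interaction over all 12 libraries. Methylated reads (deposited coverage times the deposited percent) were summed per region and tested in edgeR with a column per library. Limma 3.58.1 was run on log2 ratios with a pseudocount of 1. The genes named outside the members, where not said otherwise, were the 3 of each chemokine list with the highest level per kilobase, any gene of these lists called between limbs, and the 3 genes nearest to each member in log2 CPM with a prior count of 2. Alternatives were other size factors, other filters (none, or 10 counts), 1 transcript per gene, a replicate block, a coverage of 20, a shorter promoter, and each library left out. Nothing says that libraries of a group came from separate cages or surgery days, so p-values measure the spread between pools. Markers Cd68, Ly6g, Trbc1 and Ahsp were not analysed here. A gene that the rule names beside Cxcl10 is not reported here. The tests were tested on simulated data.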

Additional observations from a re-analysis of the deposited data

How the results depend on the processing

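Of the comparisons of members called, 78 counts stayed within 1.5 times the reported count and 9 did not. All of the 7 reported counts except that with time in DMM were 0, so for these a count that stayed was again 0. In several of these fits no transcript passed, so an unchanged 0 cannot show that the result is stable. DESeq2 called 1 member between limbs at 12 weeks (Cxcl14) and 1 with time in control (Ccl2), and leaving out 1 library gave 0 to 2 members with time in control and 0 to 5 with time in DMM. Other size factors, other filters and 1 transcript per gene changed no count of members called between limbs. Over all transcripts, calls between limbs ranged from 0 to 1122 at 4 weeks (16 reported) and from 0 to 2600 at 12 weeks (1 reported).

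Whether libraries with the same replicate number held knees of the same mice could not be decided from the values. The deviations of 3 libraries from their own mean depend on each other, so their correlations cannot settle it. In RNA the correlations of same-numbered libraries had both signs. Deviations from the group means in same-numbered control and DMM libraries correlated across transcripts at 0.359, -0.326 and 0.0808 at 4 weeks and at -0.548, 0.262 and -0.254 at 12 weeks in RNA, and at -0.0193 to 0.11 in promoter 5mC. With the number as a replicate block, edgeR called 0 members between limbs at either week, when 1.67% and 3.49% of transcripts passed. DESeq2 with the block called 1 at 4 weeks (Ccl9, 0.93, adjusted p = 0.00796, 5.17% of transcripts) and 2 at 12 weeks (Cxcl12, -0.54, adjusted p = 0.00536, and Cxcl14, 0.49, adjusted p = 0.0103, 14% of transcripts). With time in DMM, a fit to only the 6 DMM libraries called Ccl2, Ccl9, Cxcl14 and Cxcl16 but not Ccl7, and the block added to that fit called 3 (Ccl2, Ccl9 and Cxcl14, 24.2% of transcripts). The interaction of Ccl7 turned to 0.10 with the block. The cause was not tested.

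Among the values of single members, the alternatives gave 38 changes of sign, some of them several for 1 value, all in the values given here, none of which had passed. Time in control turned for Cxcl10 to -0.02765 in DESeq2, -0.02602 with 1 transcript per gene and -0.02336 with 6 libraries. The Cxcl10 promoter difference at 12 weeks turned to -0.183 points at a coverage of 20 and -0.433 points in the shorter window. With 1 library left out, log2 fold changes between limbs at 4 weeks ran from -1.205 to 1.026 for Ccl2, -1.058 to 2.211 for Ccl7 and -0.4422 to 0.184 for Cxcl12, and for Cxcl5 up to 0.9721, down to -0.4618 with control replicate 2 and DMM replicate 3 left out. At 12 weeks they ran from -0.4647 to 0.2167 for Ccl2, -0.3056 to 0.1378 for Cxcl5 and -0.2642 to 0.1269 for Cxcl10. Interactions ran from -1.286 to 0.969 for Ccl2, -1.72 to 1.569 for Ccl7, -2.217 to 0.9614 for Cxcl1 and -1.086 to 0.1542 for Cxcl5. Time in control ran from -0.02619 to 0.5642 for Ccl9 and -0.4454 to 0.9077 for Cxcl10, and time in DMM from -0.02957 to 0.2334 for Ccl5 and -0.0005756 to 1.024 for Cxcl5. Promoter 5mC differences ran from -0.508 to 0.464 points for Cxcl5 at 4 weeks, and at 12 weeks from -0.77 to 0.763 for Cxcl10 and -0.845 to 0.00215 for Cxcl14. Each group held 3 pools, and Cxcl1 rested on 4 to 112 counts per library. Their part in the precision was not tested.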
